A study of Mus musculus with 6 samples.

Results

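The genes described are 35 members of the glycolytic pathway and of the cellular response to low oxygen, in B cells isolated from mouse spleens. They are the rows of the deposited expression table that carry these 35 gene names, out of 35275 genes listed. The names were chosen by pathway and not by a cut on measured values, but with earlier results of these data known. All 35 were found, 1 row each. The study compared mice of the genotype labelled CD40LΔ5, named after the CD40 ligand that activated T cells present to B cells, with wild-type (WT) mice, with 3 libraries in each group. All mice were of the strain C57BL/6, were 6 to 8 weeks old and had been given SRBC (sheep red blood cells, an antigen to which B cells respond with T cell help), so no group without antigen was measured. Spleens were taken on day 8, and B cells were taken with a pan-B cell isolation kit, so that no subset of them was selected. The labels do not define the Δ5 allele, and nothing in them ties a library to an animal of its own, so the p-values measure the spread between these libraries. The comparison asks whether these genes were expressed differently in the CD40LΔ5 mice during the response.

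Glycolysis converts glucose to pyruvate in the cytosol, and lactate dehydrogenase can then reduce pyruvate to lactate. Resting B cells use little glucose, and activation through the antigen receptor and CD40 raises its uptake. Under low oxygen the prolyl hydroxylases of the EGLN family stop marking HIF-1α for destruction, and the stabilised factor binds DNA at short sites built around the letters ACGTG or GCGTG and induces transporters, glycolytic enzymes and genes of mitophagy and angiogenesis. Parts of the germinal centre have been described as poor in oxygen, which is why both gene sets are of interest in this tissue.

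Expression is given as FPKM, fragment counts scaled to gene length and library size, so that levels of different genes can be set side by side. Between 24320080 and 27866611 reads per library fell on genes, and the 35 members took 0.322% to 0.377% of them. The deposited sources disagreed on the groups. The authors' deposited table of group means has a column MUT and a column WT, and in every row MUT equalled, within 3.33e-08 FPKM, the average of CD40LΔ5 replicate 2 and WT replicates 1 and 2, as labelled. WT there equalled the average of the remaining libraries, CD40LΔ5 replicates 1 and 3 and WT replicate 3. These are called the MUT trio and the WT trio. The table thus gave 4 of the 6 libraries the opposite name, and only CD40LΔ5 replicate 2 and WT replicate 3 the same one. Both groupings are therefore given, the labels first, and a library is always called by its label. Cd40lg itself, at 0.118 to 0.533 FPKM on 4 to 17 reads, averaged 0.248 ± 0.204 FPKM under the CD40LΔ5 label and 0.388 ± 0.168 FPKM under the WT label (SD, n = 3 each; exact two-sided permutation p = 0.3). It averaged 0.481 ± 0.0526 FPKM in the MUT trio and 0.155 ± 0.0437 FPKM in the WT trio (SD, n = 3 each; exact two-sided permutation p = 0.1, which no split of 3 against 3 libraries can undercut). Cd40lg was thus lower in the CD40LΔ5 group by the labels and lower in the WT trio by the table, and a value per gene does not show a change within the coding sequence. Markers of T cells, the cells that present this ligand, summed to 91.6 to 105 FPKM in the MUT trio. In the WT trio they summed to 80.8 to 94.3 FPKM, and the part of T cells in the Cd40lg values was not tested.

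The 10 B cell markers were all above 1 FPKM and summed to 5123 to 5977 FPKM per library, led by Cd79a and Cd79b. No marker of the other lists was at 0 in all libraries. Plasma cell markers, led by Igj and Mzb1, summed to 1581 to 6311 FPKM in libraries labelled CD40LΔ5 and 1865 to 6416 FPKM in those labelled WT. Germinal centre markers, led by Neil1 and Bcl6, summed to 100 to 288 against 70.5 to 276 FPKM, and cell cycle genes, led by Pcna and Mcm5, to 292 to 504 against 298 to 513 FPKM. Of non-B cells, erythroid markers summed to 372 to 1302 against 712 to 1180 FPKM and neutrophil markers to 61.2 to 643 against 88.8 to 373 FPKM. Monocyte and macrophage markers summed to 156 to 229 against 142 to 415 FPKM, T cell markers to 80.8 to 94.3 against 82.6 to 105 FPKM and natural killer markers to 27.3 to 64.1 against 33.4 to 61.7 FPKM.

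The members spanned more than 3 orders of magnitude. Glycolytic enzymes held the top of the range and Egln3, Ldhb, Vegfa and Slc16a3 the bottom. In all, 5 members averaged at least 100 FPKM over the 6 libraries, 13 lay from 10 to 100 FPKM, 13 from 1 to 10 FPKM, and 4 (Slc16a3, Ldhb, Vegfa and Egln3) below 1 FPKM. The median member averaged 10.4 FPKM, against 11.1 FPKM for the median of the 11252 genes that averaged 1 FPKM or more. Only such genes were tested, so that 31 members entered the test and the 4 named did not.

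**Figure D1:**
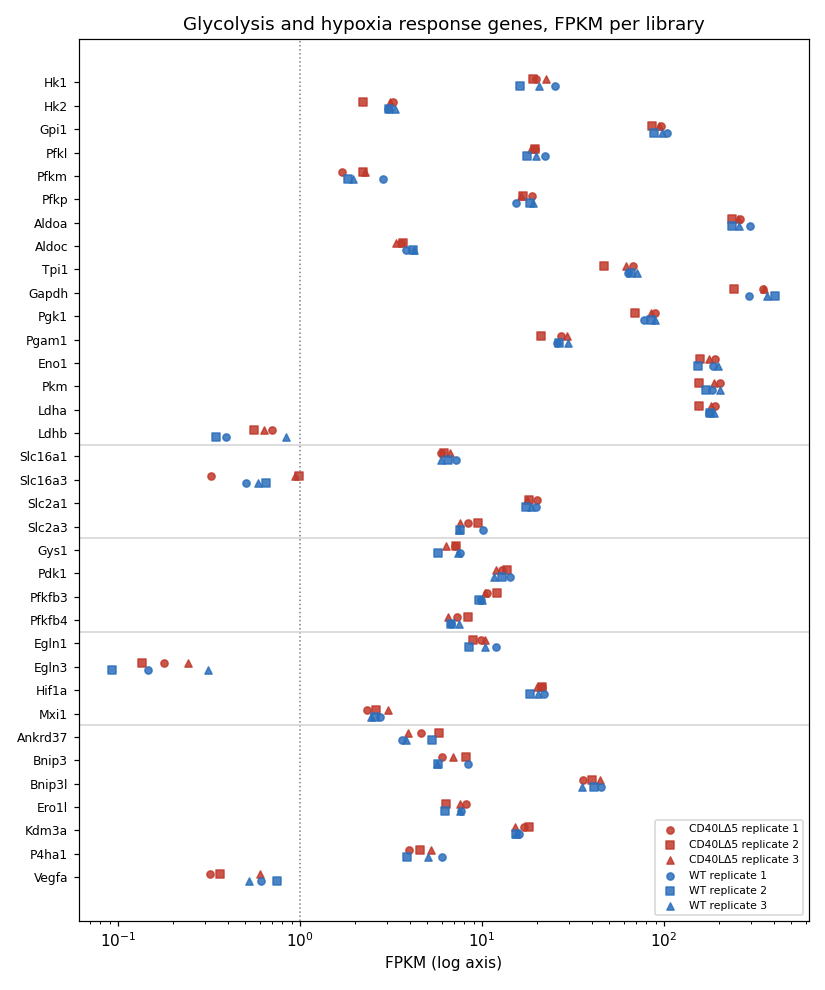
FPKM of each of the 35 genes (rows, grouped by role as enzymes, transporters, regulators, sensors and targets) on a log axis. Each point is a library, red for CD40LΔ5 and blue for WT, with the replicate number as its shape, and the dotted line marks the level of 1 FPKM needed for testing. The points of a gene lie close together compared with the distance between genes, and red and blue points overlap for nearly all genes.

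Gapdh, which oxidises glyceraldehyde 3-phosphate, was the most abundant member (mean 336 FPKM; chromosome 6, 125161853 to 125166467, minus strand). All gene positions are those of the deposited files, which are in build GRCm38. It stood at 349, 243 and 353 FPKM in CD40LΔ5 replicates 1, 2 and 3 and at 291, 409 and 369 FPKM in WT replicates 1, 2 and 3. Its highest library was 1.68 times its lowest, the widest such ratio among the tested members together with Pfkm (also 1.68), although Gapdh is often used as a reference gene. The groups overlapped.

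Aldoa, the main fructose-bisphosphate aldolase outside liver and brain (mean 257 FPKM; chromosome 7, 126795234 to 126800751, minus strand), measured 261, 237 and 255 FPKM in CD40LΔ5 replicates 1, 2 and 3 and 296, 235 and 260 FPKM in WT replicates 1, 2 and 3. Pkm, pyruvate kinase of non-hepatic tissues (mean 184 FPKM; chromosome 9, 59656368 to 59679375, plus strand), measured 203, 156 and 189 FPKM in the CD40LΔ5 replicates, against 183, 169 and 202 FPKM in the WT replicates. The value per gene does not separate its splice forms PKM1 and PKM2. CD40LΔ5 replicate 2 was lowest for Pkm, while WT replicate 2 was lowest for Aldoa.

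Ldha, the lactate dehydrogenase subunit that favours lactate formation (mean 179 FPKM; chromosome 7, 46841475 to 46855627, plus strand), measured 191, 155 and 182 FPKM in the CD40LΔ5 replicates, against 176, 179 and 188 FPKM in the WT replicates. Eno1, the ubiquitous enolase (mean 177 FPKM; chromosome 4, 150236721 to 150248879, plus strand), measured 192, 158 and 176 FPKM in the CD40LΔ5 replicates, against 186, 153 and 197 FPKM in the WT replicates. Both genes spanned less than a 1.3-fold range over the libraries, with ratios of highest to lowest of 1.23 for Ldha and 1.28 for Eno1.

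Gpi1, glucose-6-phosphate isomerase (chromosome 7, 34202122 to 34230289, minus strand), measured 96.3, 86.2 and 94.0 FPKM in the CD40LΔ5 replicates and 104, 87.5 and 97.9 FPKM in the WT replicates. Pgk1, which makes the first ATP of the pathway (chromosome X, 106187100 to 106203699, plus strand), stood at 88.7, 69.1 and 84.8 FPKM in the CD40LΔ5 replicates and at 77.9, 84.9 and 89.4 FPKM in the WT replicates. Tpi1, which interconverts the triose phosphates (chromosome 6, 124810586 to 124814296, minus strand), measured 67.5, 46.9 and 61.5 FPKM in the CD40LΔ5 replicates and 63.1, 66.2 and 71.2 FPKM in the WT replicates. CD40LΔ5 replicate 2 was the lowest library for all 3 of these genes.

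Of the enzyme families compared, all but phosphofructokinase were dominated by 1 gene, as a share of the family's summed FPKM. Ldha made up 99.5% to 99.8% of the summed FPKM of Ldha, Ldhb and Ldhc, and Aldoa 98.0% to 98.7% of that of the aldolases. Hk1, the constitutive hexokinase, made up 80.3% to 84.6% of the hexokinases, and Hk2, the inducible form, 9.84% to 15.3%. Hk1 averaged 20.4 ± 1.71 FPKM in CD40LΔ5 and 20.7 ± 4.44 FPKM in WT libraries, and Hk2 2.86 ± 0.552 against 3.14 ± 0.144 FPKM (SD, n = 3 each). Among the phosphofructokinase subunits, Pfkl (liver type) held 46.5% to 54.8% and Pfkp (platelet type) 38.1% to 48.7%, with the muscle type Pfkm at 4.28% to 7.11%. Pfkm overlaps Senp1 on the opposite strand, which averaged 12.6 FPKM against 2.14 FPKM for Pfkm, and the library kit does not keep the strand, so its reads cannot be told apart from those of Senp1 where they overlap. Of the glucose transporters, Slc2a1 (GLUT1) held 65.8% to 71.3% and Slc2a3 (GLUT3) the rest. Hk1 held 82.5 ± 2.03% in CD40LΔ5 and 81.6 ± 1.67% in WT libraries, Pfkl 49.7 ± 0.991% against 49.99 ± 4.32%, and Slc2a1 68.7 ± 2.57% against 69.1 ± 2.55% (SD, n = 3 each). These shares were not tested, and the groups overlapped.

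**Figure D2:**
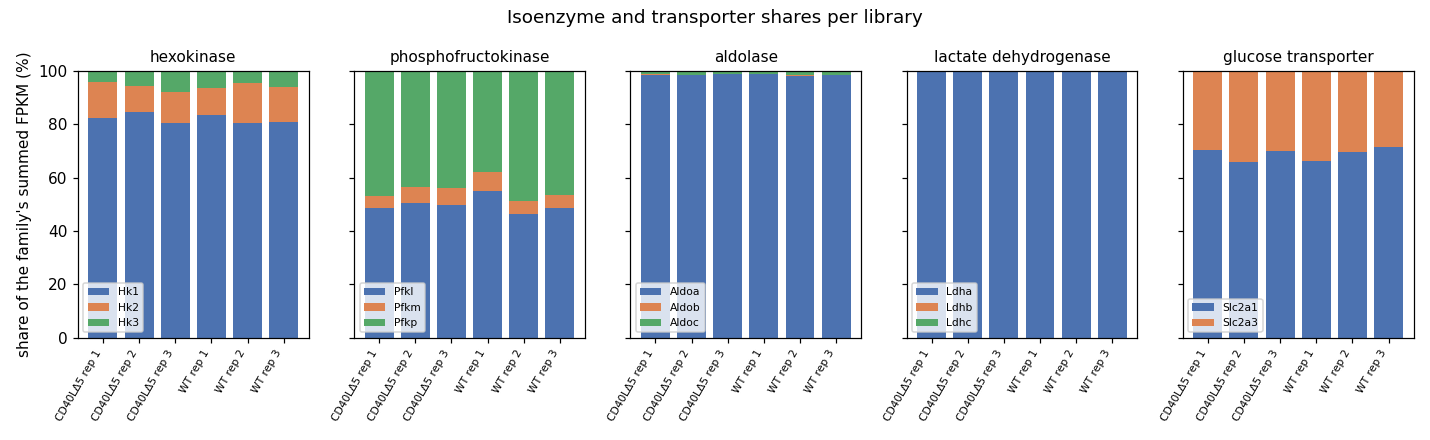
Share (%) of each isoenzyme or transporter in the summed FPKM of its family, with 1 bar per library, the 3 CD40LΔ5 libraries left of the 3 WT libraries. Ldha and Aldoa fill almost the whole bar in every library, whereas Pfkl and Pfkp share theirs, with WT replicate 1 having the highest share of Pfkl (54.8%).

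Between the libraries labelled CD40LΔ5 and WT, no member passed the test, in the expression of enzymes, transporters, regulators or hypoxia targets. The log2 differences of the 31 tested members, on the scale of log2(FPKM + 1), ran from -0.20 (Tpi1) to 0.15 (Pfkfb3). Their median was -0.02, against 0.01 over all 11252 genes tested, and 20 were lower and 11 higher, where 44.5% of all genes were lower. When log2 values were centred on the median of each library, 24 were lower and 7 higher, and so with the trend with gene length removed. Without WT replicate 1, 10 were lower and 21 higher. By limma with Benjamini-Hochberg adjustment over all genes, 0 of 31 members were called at an adjusted p of 0.05 in either direction, where the share of all genes called was 0% higher and 0% lower. At an unadjusted p under 0.05 there were 0 members as well, against 1.24% of all genes, and limma voom on recovered reads also called 0 members. The adjusted p was 0.999993 for every tested member. Of the marker lists, 15 of 15 tested plasma cell, 14 of 14 erythroid, 14 of 14 macrophage, 14 of 20 cell cycle, 13 of 15 T cell and 7 of 9 natural killer genes had lower values in CD40LΔ5, and 8 of 10 B cell, 9 of 13 germinal centre and 11 of 13 neutrophil genes had higher values, with 0 called by limma.

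The precision bounds what could have been missed. Taken back from log2(FPKM + 1) to FPKM at the WT mean, the 95% interval of the difference lay within a 1.5-fold change in either direction for 27 of the 31 members, the exceptions being Gapdh (-0.66 to 0.29 on the log2 scale), Hk2, Pfkm and Ankrd37. For Hif1a, which encodes the oxygen-labile subunit of HIF-1, the difference was 0.06 with an interval of -0.16 to 0.27. For Slc2a1 the interval ran from -0.21 to 0.21. These intervals are for single genes and are not adjusted for the number of genes.

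Only Pfkfb3 and Aldoc had groups that did not overlap under the labels. Pfkfb3 encodes an enzyme that makes fructose 2,6-bisphosphate, the main activator of phosphofructokinase (chromosome 2, 11471430 to 11502101, minus strand). It stood at 10.6, 12.2 and 10.4 FPKM in CD40LΔ5 replicates 1, 2 and 3, all above the 9.88, 9.67 and 9.97 FPKM of WT replicates 1, 2 and 3 (log2 difference 0.15 ± 0.09 SE, limma adjusted p = 0.999993). Aldoc, the aldolase of brain (chromosome 11, 78322968 to 78327781, plus strand), stood at 3.61, 3.67 and 3.39 FPKM in the CD40LΔ5 replicates, all below the 3.81, 4.19 and 4.23 FPKM of the WT replicates (log2 difference -0.16 ± 0.09 SE, limma adjusted p = 0.999993). That is 1 of 31 members in each direction, where 2.98% of all tested genes had higher and 1.32% lower groups that did not overlap, so a share of this size is not a result about the members. Under the table of means the groups of both genes overlapped, with log2 differences of 0.02 for Pfkfb3 and 0.05 for Aldoc.

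In the grouping of the authors' table, the 6 enzymes from Gapdh to Ldha had lower values in the MUT trio than the WT trio. Of 6 tested hypoxia targets 5 had higher values, where 38% of all genes were lower, and none of these members passed the test. The count of higher targets was 4 of 6 with centring on library medians and with the length trend removed. It was also 4 without CD40LΔ5 replicate 1, CD40LΔ5 replicate 2 or WT replicate 1. HIF-1 also induces glycolytic enzymes, so the 2 roles are not exclusive. By limma with Benjamini-Hochberg adjustment 0 of 31 members were called (adjusted p = 0.369 to 0.984), where 0.0178% of all tested genes were called higher and 0.00889% lower. At an unadjusted p under 0.05 there was 1 member, Pkm, against 13% of all genes, and voom called 0 members. Without WT replicate 1 the count of members at such a p was 5, against 1640 of all 11247 genes. Without WT replicate 2 it was 5, against 1598 of 11222. Without CD40LΔ5 replicate 3 it was 2, against 1230 of 11287. It was 0 without CD40LΔ5 replicate 1, CD40LΔ5 replicate 2 or WT replicate 3, against 1767 of 11269, 769 of 11158 and 561 of 11314. With the trend with gene length removed it was 6, against 1547 of 11252, and with centring on library medians 2, against 1562 of 11252. With no filter on low values it was 3 of 35, against 2138 of 22097. The log2 differences ran from -0.23 (Pgam1) to 0.22 (Bnip3), with 17 members lower and 14 higher, where 38% of all genes were lower. Without WT replicate 2, 11 were lower and 20 higher. Their median was -0.02, against 0.05 over all genes tested. By limma 13 of 13 tested germinal centre markers, 14 of 15 plasma cell markers, 19 of 20 cell cycle genes and 12 of 13 neutrophil markers had lower values in the MUT trio, and all tested B cell (10), erythroid (14), macrophage (14) and natural killer (9) markers and 13 of 15 T cell markers had higher values, with 0 called. An unadjusted limma p under 0.05 was held by 16 cell cycle, 6 natural killer, 5 germinal centre, 4 neutrophil and 4 T cell genes. It was also held by 3 plasma cell, 3 macrophage, 1 B cell and 0 erythroid genes, against 13% of all genes. The smallest adjusted p among these markers was 0.0677 by limma, for a natural killer gene. With centring on library medians, 23 members were lower and 8 higher, with the length trend removed 22 and 9, and with centring the median of all genes was -0.00255. The 95% interval, taken back to FPKM at the mean of the WT trio, lay within a 1.5-fold change for 26 of 31 members, the exceptions being Gapdh (-0.65 to 0.22 on the log2 scale), Hk2, Pfkm, Bnip3 and Ankrd37.

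**Figure D3:**
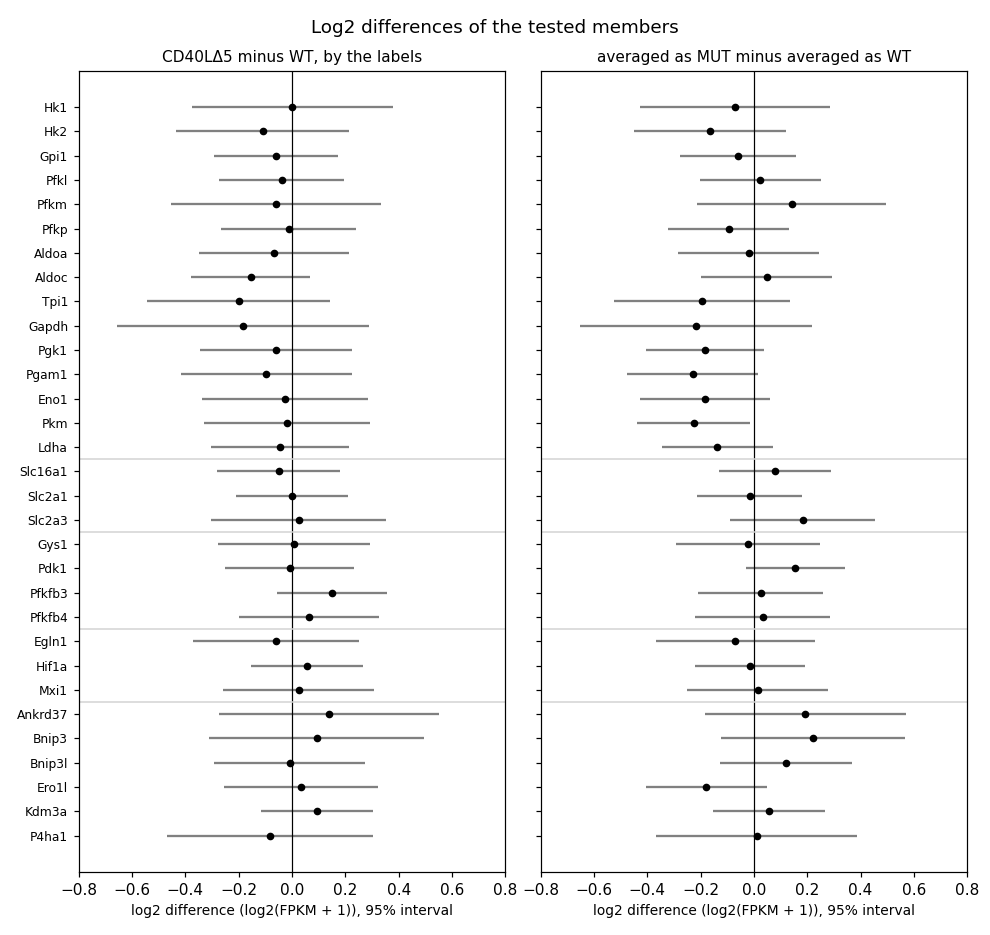
Log2 difference of each tested member with its 95% interval, CD40LΔ5 minus WT by the labels on the left and MUT trio minus WT trio (drawn as averaged as MUT minus averaged as WT) on the right. Nearly all intervals cross 0, the exception being Pkm on the right (-0.44 to -0.01), which did not pass after adjustment (limma adjusted p = 0.369).

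In this grouping, groups of 4 tested members did not overlap, Hk2, Pgam1, Pkm and Ldha, all with lower values in the MUT trio. No tested member had higher groups that did not overlap. Among all tested genes the shares were 4.79% lower and 12.1% higher. Pkm stood at 156, 183 and 169 FPKM in CD40LΔ5 replicate 2, WT replicate 1 and WT replicate 2, the MUT trio, and, in the WT trio of CD40LΔ5 replicates 1 and 3 and WT replicate 3, at 203, 189 and 202 FPKM (log2 difference -0.23 ± 0.09 SE, limma adjusted p = 0.369). Pgam1, a phosphoglycerate mutase (chromosome 19, 41911871 to 41918664, plus strand), stood at 20.98, 25.9 and 26.5 FPKM in the MUT trio, in the same order, and at 27.2, 29.2 and 29.8 FPKM in the WT trio (log2 difference -0.23 ± 0.10 SE, limma adjusted p = 0.399). Ldha stood at 155, 176 and 179 FPKM in the MUT trio and at 191, 182 and 188 FPKM in the WT trio (log2 difference -0.14 ± 0.09 SE, limma adjusted p = 0.503). Hk2 (chromosome 6, 82725025 to 82774454, minus strand) measured 2.23, 3.04 and 3.08 FPKM in the MUT trio and 3.22, 3.14 and 3.31 FPKM in the WT trio (log2 difference -0.17 ± 0.12 SE, limma adjusted p = 0.543). For all 4 genes the lowest value was that of CD40LΔ5 replicate 2.

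The 2 comparisons share all libraries, so they are not independent, and the members are described by library next. The enzymes from Gapdh to Ldha separated CD40LΔ5 replicate 2 from the rest. This library was the lowest for 5 of these 6 (Gapdh, Pgk1, Pgam1, Pkm and Ldha) and the second lowest for Eno1. The mean deviation of the 6 genes from their own means over all libraries was -0.27 on the log2 scale in CD40LΔ5 replicate 2, against 0.10 and 0.06 in CD40LΔ5 replicates 1 and 3 and -0.04, 0.01 and 0.14 in WT replicates 1, 2 and 3. By the labels all 6 had lower values in CD40LΔ5 than in WT libraries (median log2 difference -0.05), but without CD40LΔ5 replicate 2 the count was 1 lower and 5 higher (median 0.04). In the grouping of the table all 6 were lower (median -0.20), and the median was -0.12 without CD40LΔ5 replicate 2. This group of 6 was set apart after its values were seen and was not tested.

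CD40LΔ5 replicate 2 and WT replicate 1 had the lowest sums of cell cycle genes, at 292 FPKM in CD40LΔ5 replicate 2 and 298 FPKM in WT replicate 1, where the other 4 libraries had 416 to 513 FPKM. Their germinal centre sums, in that order, were 100 and 70.5 FPKM, against 170 to 288 FPKM in the others, and their plasma cell sums were 1581 and 1865 FPKM, against 3051 to 6416 FPKM. Their natural killer sums were the highest, at 64.1 and 61.7 FPKM, against 27.3 to 56.9 FPKM. So were their B cell sums, at 5977 and 5945 FPKM, against 5123 to 5552 FPKM. Mean deviations of the 6 enzymes were -0.27 in CD40LΔ5 replicate 2 and -0.04 in WT replicate 1, against 0.01 to 0.14 in the other 4. WT replicate 1 thus lay close to WT replicate 2 (0.01). Eno1 and Pkm were lower in WT replicate 2 (153 and 169 FPKM) than in WT replicate 1 (186 and 183 FPKM). Gapdh, Pgk1, Pgam1 and Ldha went the other way. They stood at 291, 77.9, 25.9 and 176 FPKM in WT replicate 1 and at 409, 84.9, 26.5 and 179 FPKM in WT replicate 2. The part of these cell types in the enzyme values was not tested, and in bulk samples fewer cells of a type and less RNA per cell cannot be told apart.

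**Figure D4:**
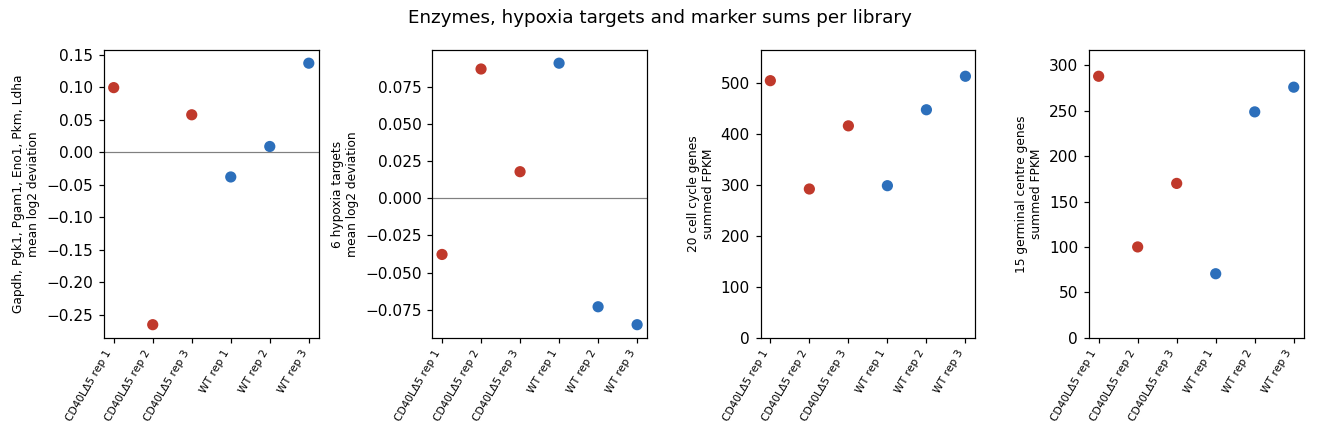
The 4 panels show, per library, the mean log2 deviation of Gapdh, Pgk1, Pgam1, Eno1, Pkm and Ldha, that of the 6 tested hypoxia targets, and the summed FPKM of 20 cell cycle and 15 germinal centre genes. Red points are CD40LΔ5 and blue points WT libraries, and CD40LΔ5 replicate 2 is lowest in the first panel (-0.27) and among the highest in the second (0.09).

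The enzymes of the earlier steps, from the hexokinases to Tpi1, also had their lowest mean in CD40LΔ5 replicate 2, but differed in the order of the other libraries. Their mean deviation was 0.01, -0.12 and -0.01 in CD40LΔ5 replicates 1, 2 and 3 and 0.11, -0.06 and 0.06 in WT replicates 1, 2 and 3. CD40LΔ5 replicate 2 was the lowest library for 3 of these 9 (Hk2, Gpi1 and Tpi1), and WT replicate 2 for 3 (Hk1, Pfkl and Aldoa). WT replicate 1 was the highest library for 5 of these 9 (Hk1, Gpi1, Pfkl, Pfkm and Aldoa) and the lowest for Pfkp, which stood at 18.8, 16.8 and 16.4 FPKM in the CD40LΔ5 replicates and at 15.4, 18.4 and 19.0 FPKM in the WT replicates. Over all 31 tested members, WT replicate 1 was the highest library for 14 and WT replicate 2 the lowest for 11, so libraries of the same label held both ends. WT replicate 1 also had the highest sum of monocyte and macrophage markers, 415 FPKM against 142 to 239 FPKM in the others, whose part in these values was not tested.

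**Figure D5:**
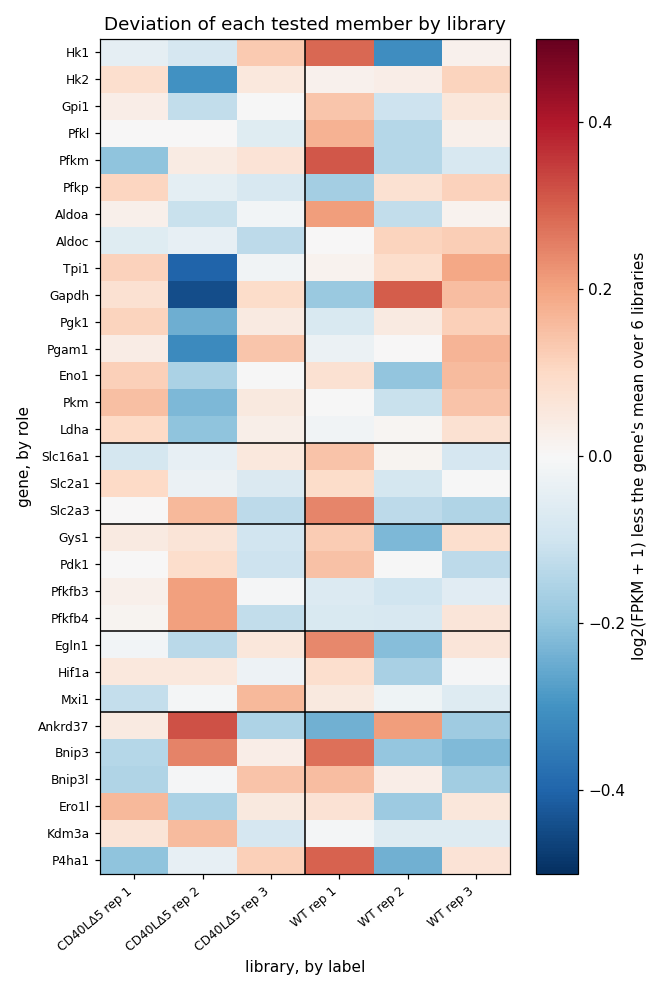
Deviation of log2(FPKM + 1) from the gene's mean over the 6 libraries for each of the 31 tested members (rows) in each library (columns, CD40LΔ5 left of WT); blue is below and red above the mean. The column of CD40LΔ5 replicate 2 is blue for the enzymes from Tpi1 to Ldha and red for Pfkfb3, Pfkfb4, Ankrd37 and Bnip3, and that of WT replicate 1 is mostly red.

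Among genes of transport, Slc2a1 was the steadiest tested member, with a ratio of highest to lowest library of 1.15. It averaged 18.6 ± 1.22 FPKM in CD40LΔ5 and 18.6 ± 1.24 FPKM in WT libraries (SD, n = 3 each). Slc2a3 averaged 8.49 ± 0.961 FPKM in CD40LΔ5 and 8.38 ± 1.49 FPKM in WT libraries (SD, n = 3 each). The lactate transporter Slc16a1 (MCT1) averaged 6.28 ± 0.368 against 6.54 ± 0.598 FPKM. Slc16a3 (MCT4), which exports lactate from strongly glycolytic cells, was low, at 0.323, 0.994 and 0.935 FPKM in the CD40LΔ5 replicates and 0.506, 0.654 and 0.585 FPKM in the WT replicates, on 38 to 113 reads. The WT values of Slc16a3 lay inside the range of the CD40LΔ5 values.

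The regulators of pathway flow lay in the middle of the range. Pfkfb4, a relative of Pfkfb3, averaged 7.38 ± 0.965 FPKM in CD40LΔ5 and 7.0 ± 0.453 FPKM in WT libraries, and like Pfkfb3 was highest in CD40LΔ5 replicate 2 (8.40 FPKM). Pdk1, which inhibits pyruvate dehydrogenase and so keeps pyruvate out of the mitochondrion, averaged 12.8 ± 0.915 against 12.9 ± 1.35 FPKM. Gys1, the glycogen synthase of muscle and other tissues, averaged 6.92 ± 0.475 against 6.91 ± 1.01 FPKM (SD, n = 3 each). Gys1 overlaps Ruvbl2 on the opposite strand over 3253 bases, and Ruvbl2 averaged 31.4 FPKM, so reads in the overlap cannot be assigned.

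Among the oxygen sensors and their targets, Hif1a and Egln1 were well expressed, while Vegfa and Egln3 averaged under 1 FPKM. Hif1a stood at 21.3, 21.3 and 20.2 FPKM in the CD40LΔ5 replicates and at 21.8, 18.3 and 20.4 FPKM in the WT replicates. The activity of HIF-1α is set mainly at the protein level, which was not measured. Egln1, the main prolyl hydroxylase, averaged 9.72 ± 0.709 FPKM in CD40LΔ5 and 10.2 ± 1.74 FPKM in WT libraries, and Mxi1, an antagonist of MYC, 2.67 ± 0.365 against 2.60 ± 0.147 FPKM (SD, n = 3 each). The group drawn as sensors holds Hif1a, Egln1, Egln3 and Mxi1, which were not counted among the hypoxia targets.

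Egln3, a hydroxylase that is itself induced by HIF-1, stood at 0.180, 0.136 and 0.243 FPKM in the CD40LΔ5 replicates and at 0.147, 0.0927 and 0.313 FPKM in the WT replicates, on 6 to 23 reads. Vegfa, the angiogenic factor, stood at 0.320, 0.362 and 0.603 FPKM in the CD40LΔ5 replicates and at 0.613, 0.751 and 0.525 FPKM in the WT replicates, on 30 to 63 reads. Ldhb, the second lactate dehydrogenase subunit, stood at 0.705, 0.556 and 0.633 FPKM in the CD40LΔ5 replicates and at 0.390, 0.347 and 0.834 FPKM in the WT replicates, on 11 to 30 reads. The groups overlapped by the labels for all 3 genes. In the grouping of the table, the MUT trio lay below the WT trio for Ldhb (0.347 to 0.556 against 0.633 to 0.834 FPKM) and for Egln3 (0.0927 to 0.147 against 0.180 to 0.313 FPKM), values that rest on few reads and were not tested.

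The hypoxia targets held intermediate levels. Bnip3l and Bnip3, receptors that direct mitochondria to autophagy, averaged 40.1 ± 4.16 and 7.03 ± 1.1 FPKM in CD40LΔ5 libraries and 40.4 ± 4.66 and 6.58 ± 1.53 FPKM in WT libraries (SD, n = 3 each). Kdm3a, a histone H3 lysine demethylase, averaged 16.8 ± 1.49 against 15.6 ± 0.360 FPKM, and Ero1l, the oxidase of disulphide formation in the endoplasmic reticulum, 7.37 ± 0.924 against 7.16 ± 0.775 FPKM. P4ha1, the collagen prolyl hydroxylase subunit, averaged 4.61 ± 0.625 against 4.98 ± 1.1 FPKM, and Ankrd37, an ankyrin repeat protein induced by hypoxia, 4.79 ± 0.964 against 4.26 ± 0.923 FPKM. Ankrd37 rests on 86 to 134 reads per library and overlaps the end of Ufsp2 on the opposite strand. The spread within each label exceeded the difference between label means for Bnip3, which stood at 5.99, 8.19 and 6.91 FPKM in the CD40LΔ5 replicates and at 8.34, 5.76 and 5.63 FPKM in the WT replicates. The mean deviation of the 6 tested targets was highest in WT replicate 1 and CD40LΔ5 replicate 2 (both 0.09), against -0.08 to 0.02 in the other libraries.

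The promoters of members were searched for the core letters of the HIF site, ACGTG and GCGTG, on both strands, in RefSeq windows (build GRCm38.p6) from 250 bases before to 50 after each annotated start. Windows were found for 33 members, 51 in all, some of which overlap. In 30 of the 33 genes some window held a match, and Gpi1, Tpi1 and Gys1 had none in these windows. No such count by gene is given for all 27025 genes with windows, so only shares of windows can be compared. Of the member windows 76.5% held a match, against 43.8% of all 32851 windows, while the median GC content was 62.3% against 52.7%, whose part in this was not tested. The E-box CACGTG, which MYC and USF proteins can bind and which contains ACGTG on both strands, was in 11.8% of member windows and 7.15% of all windows. A match describes letters, not binding. The 250 bases before the start are shown as examples, on the strand of the gene, for Ldha, Pgk1 and Bnip3. Ldha and Pgk1 were lowest in CD40LΔ5 replicate 2, and Bnip3 was high in that library. As 30 of the 33 genes had a match, nearly any choice of genes would carry such letters. The part of such letters in the library differences was not tested. Capitals mark ACGTG and GCGTG on either strand, including the C of CACGTG where both strands match.
Ldha (chr7:46845554-46845803, plus strand): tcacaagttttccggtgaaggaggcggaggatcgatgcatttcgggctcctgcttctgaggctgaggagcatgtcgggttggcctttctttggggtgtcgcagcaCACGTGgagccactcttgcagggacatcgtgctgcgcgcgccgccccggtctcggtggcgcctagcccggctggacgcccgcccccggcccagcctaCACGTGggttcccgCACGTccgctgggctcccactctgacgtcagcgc
Pgk1 (chrX:106186850-106187099, plus strand): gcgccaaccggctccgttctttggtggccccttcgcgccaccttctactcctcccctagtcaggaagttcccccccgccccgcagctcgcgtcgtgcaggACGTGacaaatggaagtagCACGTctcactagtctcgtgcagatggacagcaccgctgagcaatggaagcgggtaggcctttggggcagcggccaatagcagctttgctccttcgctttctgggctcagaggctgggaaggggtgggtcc
Bnip3 (chr7:138909507-138909756, minus strand): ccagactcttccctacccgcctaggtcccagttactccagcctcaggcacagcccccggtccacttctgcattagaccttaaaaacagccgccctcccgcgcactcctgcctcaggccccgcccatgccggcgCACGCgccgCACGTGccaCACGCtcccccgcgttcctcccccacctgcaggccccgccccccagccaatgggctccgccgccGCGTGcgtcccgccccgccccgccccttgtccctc
The Ldha stretch has 5 ACGTG matches, 4 of which lie in its 2 copies of CACGTG, and starts inside the gene as the deposited file draws it, since that gene model begins further upstream. The other Ldha window, which is not shown, has 0 ACGTG and 2 GCGTG matches. The Pgk1 stretch has 2 ACGTG matches and no GCGTG. The Bnip3 stretch has 2 ACGTG matches, both in 1 copy of CACGTG, and 3 GCGTG matches.

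Further genes of the pathway gave the same picture by the labels. Of 33 tested genes of a list of other glycolytic and pyruvate genes, 19 were lower and 14 higher in CD40LΔ5, with a median log2 difference of -0.01 and 0 called by limma (0 with an unadjusted p under 0.05). The smallest unadjusted p were those of Pdhb, a pyruvate dehydrogenase subunit (56.4 ± 1.70 FPKM in CD40LΔ5, 61.0 ± 2.32 FPKM in WT), of the monocarboxylate transporter Slc16a7 (2.20 ± 0.540 against 1.66 ± 0.381 FPKM) and of Gpd2, mitochondrial glycerol phosphate dehydrogenase (10.9 ± 0.763 against 9.85 ± 1.29 FPKM; SD, n = 3 each). Of 30 other hypoxia genes 16 were lower and 14 higher (median -0.02, 0 called by limma, 1 with an unadjusted p under 0.05). That gene was Ddit4, an inhibitor of mTORC1 induced by hypoxia and other stress, at 63.4, 80.9 and 63.4 FPKM in the CD40LΔ5 replicates and 53.6, 49.6 and 50.6 FPKM in the WT replicates (log2 difference 0.42 ± 0.12 SE, limma adjusted p = 0.999993). Its groups did not overlap, as was so for 2.98% of all tested genes in the higher direction. An unadjusted p under 0.05 was held by 1.24% of all tested genes. Tfrc, the transferrin receptor (16.6 ± 0.419 against 18.3 ± 0.643 FPKM), and Fam162a (34.5 ± 0.939 against 38.7 ± 3.35 FPKM) came next.

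In the grouping of the table, the muscle enolase Eno3 had a difference of opposite sign to that of Eno1. Eno3 stood at 15.1, 11.9 and 12.8 FPKM in CD40LΔ5 replicate 2, WT replicate 1 and WT replicate 2, the MUT trio, and, in the WT trio of CD40LΔ5 replicates 1 and 3 and WT replicate 3, at 9.74, 7.25 and 8.32 FPKM (log2 difference 0.60 ± 0.13 SE, limma adjusted p = 0.343). Eno1 had a log2 difference of -0.18 ± 0.10 SE (limma adjusted p = 0.455). Mpc1, a subunit of the mitochondrial pyruvate carrier, averaged 7.13 ± 1.54 FPKM in the MUT trio and 4.203 ± 1.34 FPKM in the WT trio, and the sugar transporter Slc2a8 4.32 ± 0.224 against 3.43 ± 0.205 FPKM (SD, n = 3 each). In this list 15 of 33 tested genes were higher and 18 lower, with 0 called by limma and 3 with an unadjusted p under 0.05. Of the 30 hypoxia genes 18 were higher and 12 lower, with 0 called by limma and 3 with an unadjusted p under 0.05. These were Cdkn1b, a brake on the cell cycle (40.1 ± 1.45 against 33.5 ± 1.91 FPKM), Zfp395 (9.57 ± 1.63 against 7.11 ± 0.225 FPKM) and Cited2, an inhibitor of HIF-1 (20.99 ± 1.90 against 26.3 ± 4.30 FPKM). Over all tested genes 13% had such a p in this grouping, so neither count is a result about these lists.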

How the data were processed

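The measurements are gene expression values of 6 libraries, 3 labelled CD40LΔ5 and 3 labelled WT. The authors deposited FPKM per gene and library, a column of gene lengths and a table of FPKM means. Per the submitters' processing notes the tools were CASAVA 1.8.2, STAR and DESeq2, and the build mm9; the sources used here do not name the counter, the annotation or any filter. Coordinates in the files are those of GRCm38 rather than mm9: 24919 of 34490 genes shared with GENCODE M21 have its exact start and end, members included (22 of 35). Per the labels, a TruSeq RNA kit was used, which does not mark the strand. FPKM times length divided by its smallest step gave whole reads for 100% of values (tolerance 0.01 reads), which were used for depth and for voom; 1 read is 0.0359 to 0.0411 FPKM for a gene of 1 kb.

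Genes averaging 1 FPKM or more over the 6 libraries (11252) were tested on the log2(FPKM + 1) scale with limma 3.58.1 (R 4.3.3; two-sided moderated statistics, variance trend). P-values were adjusted by the Benjamini-Hochberg method over all of them, at a threshold of 0.05. Differences on this scale understate the change of low genes. The sets of the table of means were found as the 3 libraries whose mean each column equals. Processed copies such as Eno1b, Ldha-ps and Pgk1-rs7 were at most 0.805 FPKM in any library (12 looked at), and reads that such copies share with their parent gene were not separated; 12 members overlap another listed gene.

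Every member is named. Values per library are given for members whose groups do not overlap in either grouping and for the 8 of highest mean, and for others where the text compares libraries; of each further pathway list the 3 genes of smallest p per grouping are named. Members and lists were chosen with earlier results of these data known. In simulated data (11252 genes, 50 changed at each size), the label groups recovered 58% of 1.5-fold, 82% of 2-fold and 96% of 4-fold changes and made 9 false calls, and the trios recovered 48%, 88% and 94% and made 8. Simulated noise was independent between genes. Changed genes were drawn only from the more highly expressed tested genes, so members of low level are not represented. Many changes were planted at once, which loosens the adjustment, so recovery may be lower where few genes change. Alternatives were another pseudocount, no filter, centring, no variance trend, voom, removal of the trend with gene length (loess, span 0.3), a replicate block, leaving out each library, and the 4 libraries that both sources separate in the same way but name oppositely (CD40LΔ5 replicates 1 and 3 from WT replicates 1 and 2).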

Additional observations from a re-analysis of the deposited data

How the results depend on the processing

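The count of members called stayed at 0 in both groupings under every alternative run, with a smallest adjusted p of 0.918 by the labels and 0.212 by the table (limma). The median log2 difference of the members moved by less than 1 SD of the libraries throughout. By the labels it was -0.02 and lay between -0.05 and 0.05 over the fits that leave out 1 library, with the sign turned without WT replicate 1 (0.05) and with the 4 libraries that the sources name oppositely (0.01). By the table it was -0.02 and lay between -0.07 and 0.04, turned without WT replicate 2 (0.04). With 26 members by the labels and 15 by the table, the sign of the difference changed under some alternative. Of 837 recomputed values of single members, 4 moved by more than 1 SD, those of Pgk1, Pgam1 and Pkm by the labels with those 4 libraries (log2 differences 0.09, 0.10 and 0.16) and that of Ldha by the table with the length trend removed (-0.23).

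Over all genes the labels called 0, and 2 with those 4 libraries. The table called 3, which became 5 with a pseudocount of 0.1, 1 with no filter on low values, 5 with centring and 1 with voom. Over the fits that leave out 1 library it lay between 1 and 16: 16 without CD40LΔ5 replicate 1, 1 without CD40LΔ5 replicate 2 and 13 without WT replicate 2. With the replicate number as a block, the labels called 0 members and 0 genes. The correlations of deviations between libraries of the same number were -0.38, 0.06 and 0.38 for numbers 1, 2 and 3, and 3 of 6 samples correlated best with their own number, so the numbers were not taken to pair the samples. In the sets of the table a block was not run, since each trio repeats a number. Depth limits Egln3, Ldhb, Vegfa and Slc16a3, which rest on 6 to 113 reads.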

Other observations

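Genes of the pentose phosphate pathway, which branches from glycolysis and makes NADPH and ribose, showed no call in either grouping. All 10 listed genes were tested. By the labels 7 were lower and 3 higher in CD40LΔ5 (median log2 difference -0.04, 0 called by limma, 0 with an unadjusted p under 0.05). The smallest unadjusted p were those of Rpia (22.7 ± 2.63 FPKM in CD40LΔ5, 24.2 ± 1.28 FPKM in WT), Tkt, transketolase (78.7 ± 5.28 against 83.9 ± 7.70 FPKM), and G6pdx, the first enzyme of the branch (15.5 ± 1.03 against 16.8 ± 2.42 FPKM; SD, n = 3 each). By the table of means 7 were lower and 3 higher in the MUT trio (median -0.05, 0 called by limma, 0 with an unadjusted p under 0.05), with Pgls at 52.0 ± 3.50 against 46.2 ± 1.31 FPKM, Pgd at 27.0 ± 0.882 against 29.5 ± 1.70 FPKM and Prps2 at 29.2 ± 2.12 against 31.7 ± 1.61 FPKM.

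Of 18 tested regulators of the pathway, 10 were higher and 8 lower in CD40LΔ5 by the labels (median log2 difference 0.04, 0 called by limma, 0 with an unadjusted p under 0.05). The smallest p were those of Rptor, Mtor and Tsc1, whose groups did not overlap, as was so for 2.98% of all tested genes in the higher direction. Rptor, a scaffold of mTORC1, stood at 8.95, 9.13 and 8.05 FPKM in the CD40LΔ5 replicates and at 7.98, 7.08 and 7.43 FPKM in the WT replicates. Mtor, the kinase, averaged 9.55 ± 0.843 against 8.33 ± 0.570 FPKM, and Tsc1, part of an inhibitor of that kinase complex, 8.77 ± 0.624 against 7.82 ± 0.281 FPKM (SD, n = 3 each; limma adjusted p = 0.999993 for all). By the table of means, 6 were higher and 12 lower (median -0.05, 0 called by limma, 0 with an unadjusted p under 0.05), with Prkab1, a subunit of AMPK, at 27.7 ± 0.868 FPKM in the MUT trio and 25.2 ± 1.69 FPKM in the WT trio, Gsk3b at 10.3 ± 1.00 against 11.5 ± 0.589 FPKM and Gsk3a at 35.3 ± 1.51 against 38.1 ± 0.909 FPKM.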
